A study of Mus musculus with 8 samples.

Results

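The RNA of 10 skeletal muscle genes was followed through 8 RNA-seq libraries of mouse cochlea. The genes were chosen by symbol, as markers of muscle left on the dissected cochlea: Acta1, Ckm, Myh1, Myh2, Myh4, Myh7, Mylpf, Tnnt3, Tnnt1 and Mb. All 10 were found among the 47628 entries that name a gene, and all 10 passed the count minimum, as did 19366 genes in all. The label held for fast skeletal muscle: the genes of fast fibres and those of all fibres stood at 16.6 CPM (counts scaled to the size of the library and corrected by its TMM factor) or more in 7 of the 8 libraries, whereas Myh7 and Tnnt1, which mark slow fibres, were low throughout. Which muscle the RNA came from was not tested.

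The study compared the cochleae of Opa1+/- mice, which carry a delTTAG deletion in 1 allele of the mitochondrial fusion gene Opa1, with those of WT littermates. The libraries are named as in the labels, WT_4, WT_5, WT_6 and WT_8 for WT mice and Het_2, Het_7, Het_484 and Het_491 for Opa1+/- mice, each from 1 animal, so n = 4 per genotype. The mice were on a mixed C57BL/6J and 129Sv/Pas background, were untreated and were 21 days old by the methods, although a supplementary listing gives 1 month. The delTTAG allele is present in every cell of the Opa1+/- mice, muscle included, and homozygous mice die before birth. For RNA extraction the labels name TRI Reagent or an RNeasy kit, without saying which mouse received which. The paper's methods name TRI Reagent and NucleoSpin columns and no RNeasy kit.

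A skeletal muscle fibre shortens when myosin heads of the thick filament pull on actin of the thin filament, and troponin on the thin filament makes this depend on calcium. Fast and slow fibres use different genes for the same parts, so the mixture of myosin heavy chains is the usual measure of fibre type. The cochlea itself holds no skeletal muscle, but the bone around it lies next to the middle ear, where the stapedius and the tensor tympani act on the ossicles.

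The sequences before the starts of 5 members, Myh1, Myh2, Myh4, Acta1 and Tnnt1, are shown because the 3 fast myosin genes lie side by side on chromosome 11 and moved with most other members between libraries, whereas Tnnt1 varied less. Acta1 stands for the genes of all fibres, and the windows of Ckm, Mylpf, Myh7 and Mb were searched in the same way but are not printed. RefSeq's table for GRCm38.p6 held an entry for 9 of the 10 members; Tnnt3 had none. The bases from 250 to 51 before the annotated start are given, 200 bases each, in lower case. Capitals mark 3 motifs known from muscle promoters: the E box CAGCTG, which reads the same on both strands, the MEF2 site and the CArG box of serum response factor.
Myh1: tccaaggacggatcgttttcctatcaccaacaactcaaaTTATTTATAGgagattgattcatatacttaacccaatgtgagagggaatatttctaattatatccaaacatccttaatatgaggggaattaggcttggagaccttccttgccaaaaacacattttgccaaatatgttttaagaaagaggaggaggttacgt
Myh2: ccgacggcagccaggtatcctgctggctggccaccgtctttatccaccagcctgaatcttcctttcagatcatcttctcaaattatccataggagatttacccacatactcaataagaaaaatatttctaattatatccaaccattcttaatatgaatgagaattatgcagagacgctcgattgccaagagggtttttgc
Myh4: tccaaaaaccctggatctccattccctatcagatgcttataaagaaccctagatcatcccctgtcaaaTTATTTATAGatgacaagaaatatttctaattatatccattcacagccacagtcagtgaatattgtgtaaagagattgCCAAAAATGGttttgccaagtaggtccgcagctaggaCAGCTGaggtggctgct
Acta1: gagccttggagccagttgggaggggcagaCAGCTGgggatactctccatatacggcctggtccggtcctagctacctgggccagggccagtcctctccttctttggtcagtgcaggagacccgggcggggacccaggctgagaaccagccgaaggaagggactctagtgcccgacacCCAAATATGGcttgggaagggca
Tnnt1: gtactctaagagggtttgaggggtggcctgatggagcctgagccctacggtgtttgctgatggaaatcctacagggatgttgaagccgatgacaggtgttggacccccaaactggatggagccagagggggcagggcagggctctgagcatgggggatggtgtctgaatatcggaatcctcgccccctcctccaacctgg
These windows lie at chr11:67199852-67200051 for Myh1, chr11:67170777-67170976 for Myh2 and chr11:67237562-67237761 for Myh4, all on the plus strand. Those of Acta1 at chr8:123894826-123895025 and of Tnnt1 at chr7:4516026-4516225 are on the minus strand. One run of 20 bases, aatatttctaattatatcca, stood in the windows of all 3 fast myosins, starting 165, 130 and 163 bases before the starts of Myh1, Myh2 and Myh4. Over the 250 bases before the start, the E box was found in 5 members (Acta1, Ckm, Myh4, Mylpf and Mb) of the 9 with an entry, and in 13.0% of all 32817 windows. The table holds 3 starts for Mb and 2 for Myh7, and a member was counted if any of its windows held the motif: of the 12 member windows, 6 held an E box, and since a pair of the Mb windows overlap, 2 of these 6 hold the same site. A MEF2 site was found in Myh1 and Myh4 and in 2.92% of all windows, and a CArG box in Acta1 and Myh4 and in 1.47%. Within a window, no match of one motif overlapped a match of another. No match says only that these letters were not in this window.

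Counts on named genes ranged from 15978051 to 20828030 per library, and TMM factors from edgeR lay between 0.948 and 1.06. Opa1 lay between 111.7 and 125.9 CPM in WT and between 60.4 and 70.0 CPM in Opa1+/- mice, with no overlap. Cochlear tissue was present in every library: the summed level of 10 hair cell markers lay between 111.0 and 164 CPM and that of 10 spiral ganglion markers between 5404 and 6524 CPM.

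The 10 members together differed between mice far more than these cochlear markers. Their summed level was 419.9, 234, 2249 and 534 CPM in WT_4, WT_5, WT_6 and WT_8, and 249.8, 1126, 815 and 17.4 CPM in Het_2, Het_7, Het_484 and Het_491. The highest library, WT_6, and the lowest, Het_491, were 129-fold apart. WT_6 stood 4.21-fold above the next WT library and held 37.3% of all member counts of the series. Het_491 stood 13.4-fold below the next lowest library. In counts, the members took 37650 of the counts of WT_6, or 0.221%, and 273 of those of Het_491, or 0.00165%. In bulk RNA such as this, fewer fibres and less RNA per fibre cannot be told apart. In what follows, values by mouse are given in that order of libraries.

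**Figure D1:**
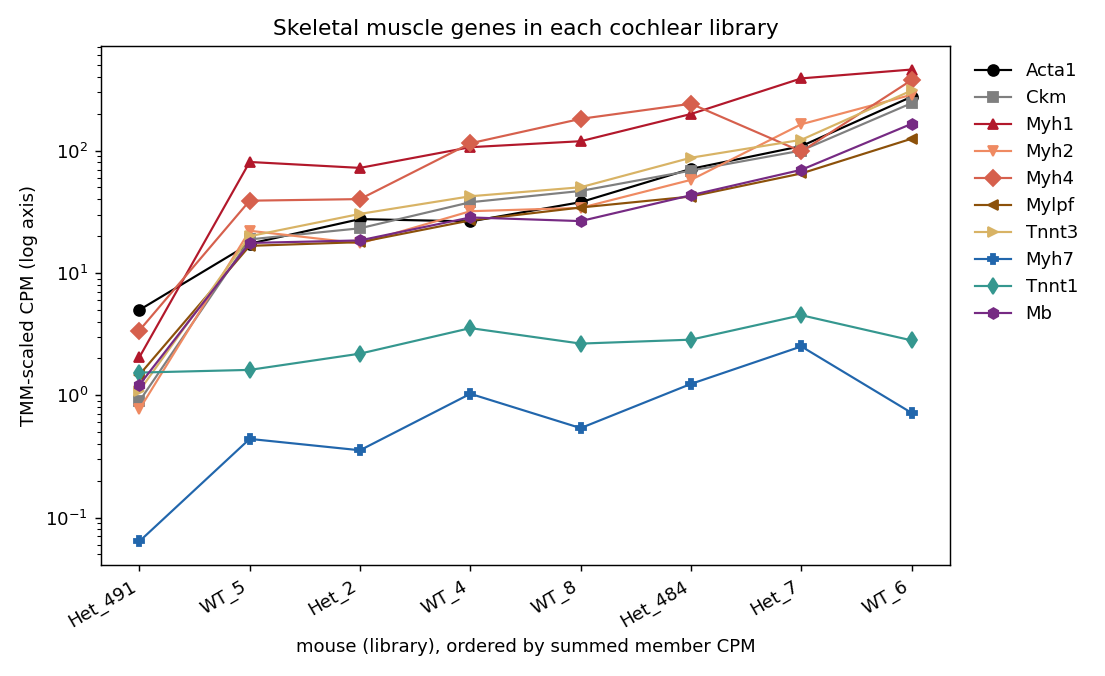
TMM-scaled CPM of each of the 10 members (logarithmic vertical axis) in each of the 8 libraries, ordered from left to right by the summed member CPM (17.4 in Het_491 to 2249 in WT_6). Lines join the values of 1 gene. Most genes climb together, Tnnt1 stays between 1.53 and 4.51 CPM, and Myh4 drops to 98.4 CPM in Het_7.

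Acta1 encodes skeletal alpha-actin, the actin of the thin filament, and lies on chromosome 8 from 123891769 to 123894751 of GRCm38 (GENCODE vM21). It stood at 26.4, 17.3, 276 and 37.9 CPM in WT and at 27.6, 109, 70.9 and 4.98 CPM in Opa1+/- mice. WT_6 was highest and Het_491 lowest, and the genotypes overlapped. In Het_491 Acta1 kept 13.1% of its median in the other 7 libraries, more than the other abundant members did. Its count was 0.697 to 1.19 times that of Ckm in those 7 libraries and 5.57 times in Het_491, where the ratio rests on 78 and 14 counts.

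The 3 fast myosin heavy chains are the motors of the thick filament, and Myh1 and Myh4 were the members with the most counts. Myh1 encodes the heavy chain of type 2X fibres and lies on chromosome 11 from 67200052 to 67224575. It had 107, 80.8, 460.4 and 119 CPM in WT and 72.3, 389.6, 199 and 2.04 CPM in Opa1+/- mice. Myh2, of type 2A fibres (chromosome 11, 67171027 to 67197517), had 32.0, 22.1, 286 and 34.0 CPM in WT and 17.4, 164, 57.7 and 0.766 CPM in Opa1+/- mice. For both genes WT_6 and Het_7 stood above the other libraries. Myh4, of type 2B fibres (chromosome 11, 67238029 to 67260446), had 115, 39.0, 378 and 182 CPM in WT and 40.1, 98.4, 242 and 3.38 CPM in Opa1+/- mice. Here Het_7 fell in the middle, and Het_484 was second to WT_6. Of the 80-base windows of these transcripts, 15.0% for Myh1, 14.7% for Myh2 and 8.17% for Myh4 occur identically in another myosin gene, so part of their reads could have been assigned to one another. The antisense gene Myhas also overlaps exons of Myh1, and 9430073C21Rik those of Myh2, and the use of strand in counting is not given in the sources used here.

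Mylpf and Tnnt3 supply other parts of the fast sarcomere. Mylpf, the regulatory light chain of fast myosin (chromosome 7, 127208890 to 127214298), had 26.9, 16.6, 125 and 34.3 CPM in WT and 17.9, 65.1, 42.1 and 1.47 CPM in Opa1+/- mice. Tnnt3, fast troponin T, which ties the troponin complex to tropomyosin (chromosome 7, 142498836 to 142516009), had 42.4, 20.0, 310.3 and 50.2 CPM in WT and 30.4, 123, 87.5 and 1.08 CPM in Opa1+/- mice. Both had the same order at the top: WT_6, then Het_7, then Het_484. Tnnt3 stayed in nearly constant proportion to Ckm, between 1.06 and 1.31 counts per count of Ckm in all 8 libraries.

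Ckm, the muscle creatine kinase that buffers ATP (chromosome 7, 19404776 to 19422841), had 37.8, 18.8, 245 and 46.8 CPM in WT and 23.2, 100.1, 68.7 and 0.894 CPM in Opa1+/- mice. Mb, myoglobin, which stores oxygen in oxidative fibres (chromosome 15, 77015487 to 77050670), had 28.4, 17.6, 166 and 26.5 CPM in WT and 18.4, 69.7, 43.2 and 1.21 CPM in Opa1+/- mice. Although Mb is grouped with the slow and oxidative genes, it followed the fast genes across libraries, with 0.567 to 1.36 counts per count of Ckm. Antisense genes overlap exons of both, as does a stretch of Apol6 for Mb.

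The slow fibre genes Myh7 and Tnnt1 followed the fast genes less closely. Myh7 encodes the slow myosin heavy chain, which is also the beta chain of the heart (chromosome 14, 54970684 to 54994626). It had 1.03, 0.439, 0.717 and 0.539 CPM in WT and 0.355, 2.51, 1.24 and 0.0638 CPM in Opa1+/- mice, from 1 to 50 counts. Het_7 was highest and WT_6, with 12 counts, lay in the middle. Het_491 was lowest here too, at 8.90% of the median of the other 7 libraries, but on 1 count, for which the exact 95% Poisson interval, which covers counting error alone, runs from 0.225% to 49.6%. Of its 80-base windows, 14.4% are shared with Myh6. The antisense genes Mhrt, Gm29015 and Gm31251 overlap its exons, so reads of either strand cannot be told apart if counting ignored strand. Tnnt1, slow troponin T (chromosome 7, 4504570 to 4516382), had 3.54, 1.61, 2.81 and 2.64 CPM in WT and 2.19, 4.51, 2.85 and 1.53 CPM in Opa1+/- mice. Its highest and lowest libraries were 2.95-fold apart, and in Het_491 it kept 54.6% of its median in the other 7 libraries. The other members apart from Acta1 and Myh7 kept between 1.71% and 4.28% there. As a share of the Tnnt3 count, Tnnt1 ranged from 0.905% in WT_6 to 141% in Het_491.

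The mixture of the 4 adult myosin heavy chains was described by shares of RNA, which do not depend on library scaling. Such shares are not fibre counts, and windows shared between myosins or low counts, as in Het_491, can shift them. Of the summed counts of these 4 genes, Myh4 took 45.1%, 27.4%, 33.6% and 54.2% in WT mice and 30.8%, 15.0%, 48.3% and 54.1% in Opa1+/- mice. Myh1 took 41.9%, 56.8%, 40.9% and 35.5% in WT and 55.5%, 59.5%, 39.9% and 32.7% in Opa1+/- mice. Myh2 lay between 10.1% and 15.5% in 6 libraries and reached 25.4% in WT_6 (95% Wilson interval 24.8 to 26.1) and 25.1% in Het_7 (24.4 to 25.8). The libraries with the most muscle RNA therefore held the largest shares of 2A myosin, but they differed in Myh4, at 33.6% and 15.0%. Myh7 took at most 0.404% in 7 libraries and 1 of 98 counts, or 1.02% (0.180 to 5.56), in Het_491. These intervals cover counting error only.

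**Figure D2:**
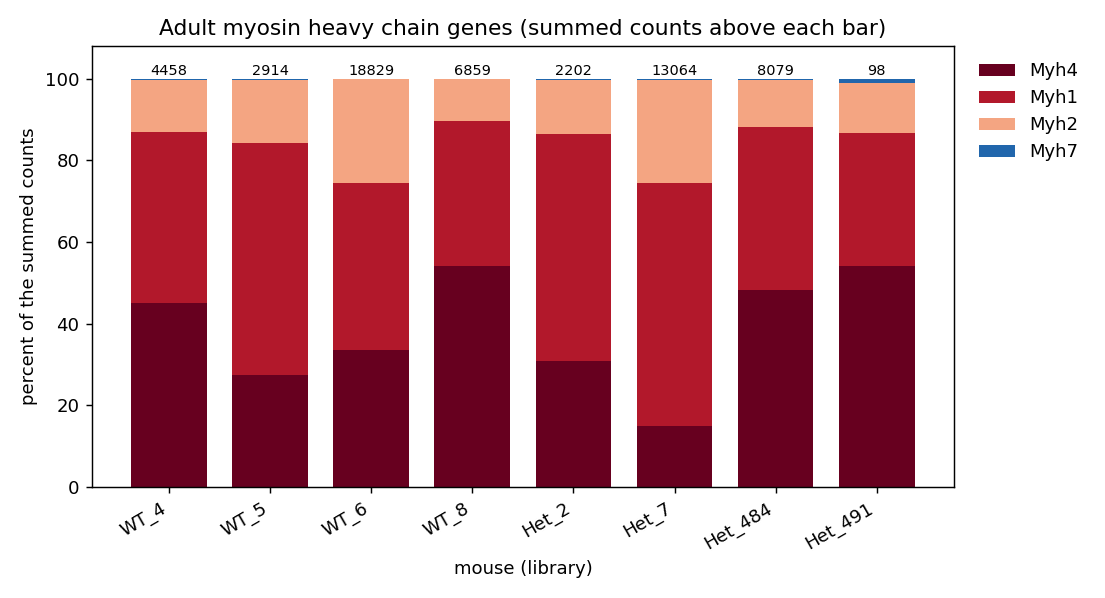
Shares of Myh4, Myh1, Myh2 and Myh7 in their summed counts (percent, vertical axis from 0) in each of the 8 libraries, with the summed count above each bar (98 in Het_491, 18829 in WT_6). Each bar is 1 mouse. The Myh2 segment is widest in WT_6 and Het_7, and Myh4 ranges from 15.0% to 54.2%.

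Between genotypes the shares overlapped. Myh4 averaged 40.1 ± 11.9% (SD, n = 4) in WT and 37.1 ± 17.7% in Opa1+/- mice, Myh1 43.8 ± 9.09% and 46.9 ± 12.7%, and Myh2 15.9 ± 6.72% and 15.6 ± 6.40%. Each of these 3 differences was smaller than the SD of either group. Myh7 averaged 0.234 ± 0.151% in WT against 0.481 ± 0.365% in the 4 Opa1+/- mice, a difference of 0.247 percentage points that was larger than the SD in WT and smaller than that in Opa1+/- mice. It had no test, and without Het_491, where Myh7 had 1 count, it was 0.0667. Of the developmental myosins, Myh8, the perinatal chain, made up between 4.00% and 6.05% of the counts in 7 libraries when it and embryonic Myh3 were added to the sum, and 25.0% in Het_491, on 38 of 152 counts. There Myh3 made up 10.5%, on 16 counts, against at most 0.770% elsewhere. These 2 shares do not stand for higher levels, since the 4 adult myosins had only 98 counts in Het_491. Myh3 stood at 1.02 CPM there, near WT_5 (0.928 CPM) and Het_2 (1.06 CPM), and Myh8 was at its lowest, 2.43 CPM.

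Whether the members differed between Opa1+/- and WT mice was read from a fit over all 19366 tested genes. None of the 10 members passed an adjusted p of 0.05 by the quasi-likelihood test of edgeR, adjusted by the Benjamini-Hochberg method, a threshold that 0.0258% of all tested genes passed. At an unadjusted p of 0.05 the count was also 0 of 10, against 6.72% of all tested genes, and DESeq2 and limma voom called 0 of 10 as well. In 0 of 10 members did the genotypes fail to overlap, against 4.31% of tested genes. The fitted values were lower in Opa1+/- for 8 members and higher for Myh7 and Tnnt1, with a median log2 fold change of -0.71, beside 3.95e-04 over all tested genes. The largest differences were those of Myh4, at -0.89 on the log2 scale (standard error 0.967, adjusted p = 0.880 from edgeR), and Ckm, at -0.84 (standard error 1.03, adjusted p = 0.899). Mb stood at -0.83 (standard error 0.940), Tnnt3 at -0.80 (standard error 1.07), Acta1 at -0.74 (standard error 0.992) and Mylpf at -0.67 (standard error 0.857). Myh2 stood at -0.63 (standard error 1.16) and Myh1 at -0.21 (standard error 1.03). Myh7 stood at 0.67 (standard error 0.728) and Tnnt1 at 0.08 (standard error 0.342), and every difference was smaller than its standard error. Adjusted p-values of all 10 lay between 0.880 and 0.976.

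Most of these directions rested on single mice. Without WT_6, 7 of the 8 members with lower fitted values turned. Myh4 stayed lower with any single mouse left out, between -1.90 and -0.22 on the log2 scale, and turned to 0.18 without both WT_6 and Het_491. Summed over members, WT had 859 ± 935 CPM (SD, n = 4) and Opa1+/- mice 552 ± 508 CPM (SD, n = 4), a ratio of 0.642. Without WT_6 the WT mean was 396 ± 151 CPM (SD, n = 3), the ratio turned to 1.39, and the median log2 fold change of the members to 0.59. Without Het_491 as well, which left 730.2 ± 444 CPM (SD, n = 3) in Opa1+/- mice, the ratio was 1.84 and the median 0.98. Without Het_7 the ratio was 0.420 and the median -1.34, and without Het_491 alone the median was -0.32. In each of these comparisons 0 of 10 members passed the adjusted threshold of edgeR, and Acta1 alone had an unadjusted p under 0.05, without WT_6 and Het_491.

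**Figure D3:**
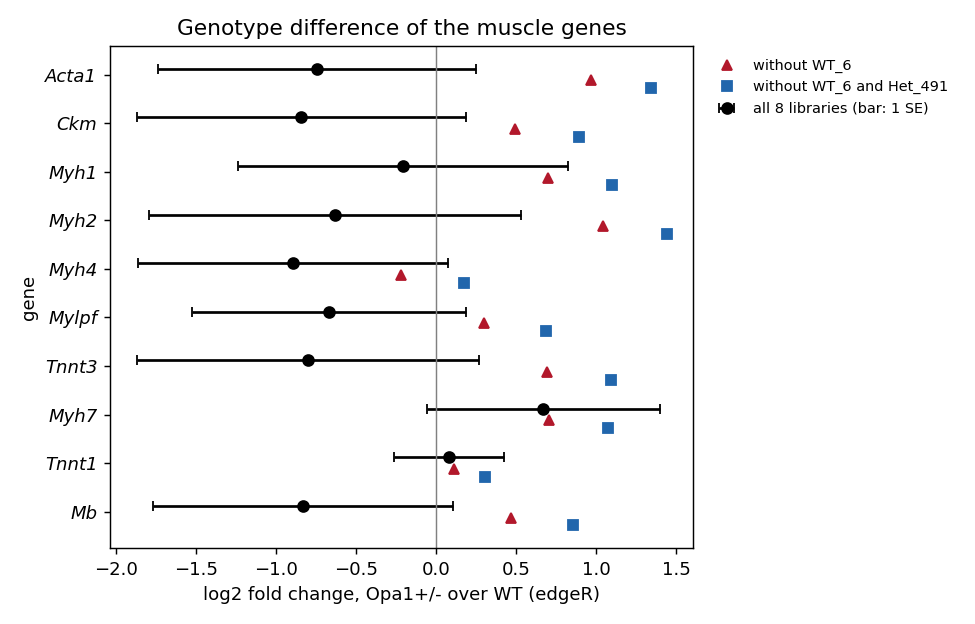
Log2 fold change of Opa1+/- over WT for each of the 10 members (horizontal axis), from edgeR. Black circles with bars of 1 standard error use all 8 libraries, red triangles leave out WT_6, and blue squares leave out WT_6 and Het_491. With all libraries 8 of the 10 lie left of 0, and without WT_6 and Het_491 all 10 lie right of it, Myh4 nearest at 0.18.

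The spread between mice of one genotype set the members apart from most genes. The SD of log2 CPM within genotypes had a median of 2.10 over the members and of 0.170 over all tested genes. It was largest for Myh2 (2.64), Myh1 (2.51) and Tnnt3 (2.49), and 9 members lay above the 99th percentile of tested genes, all but Tnnt1 (0.57, percentile 92.3). Of the 100 tested genes with the largest SD, 8 were members and 16 others were on the lists of further muscle genes described next, which with the members held 78 tested genes. Much of this spread came with Het_491. Without it, the median SD of the members was 1.31, against 0.162 over all tested genes, and 6 members lay above the 99th percentile. The order changed too: Myh2 (1.65) was then followed by Acta1 (1.51) and Tnnt3 (1.46), and Myh1 stood at 1.16. Of the 100 genes with the largest SD, 3 were then members and 3 others were on the muscle lists. Leaving out any other single library gave a median between 2.09 and 2.30. Without both WT_6 and Het_491 it was 0.892, against 0.144 over all tested genes, and 3 members lay above the 99th percentile. Of the 100 genes with the largest SD, 2 were then members and 2 others were on the muscle lists.

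**Figure D4:**
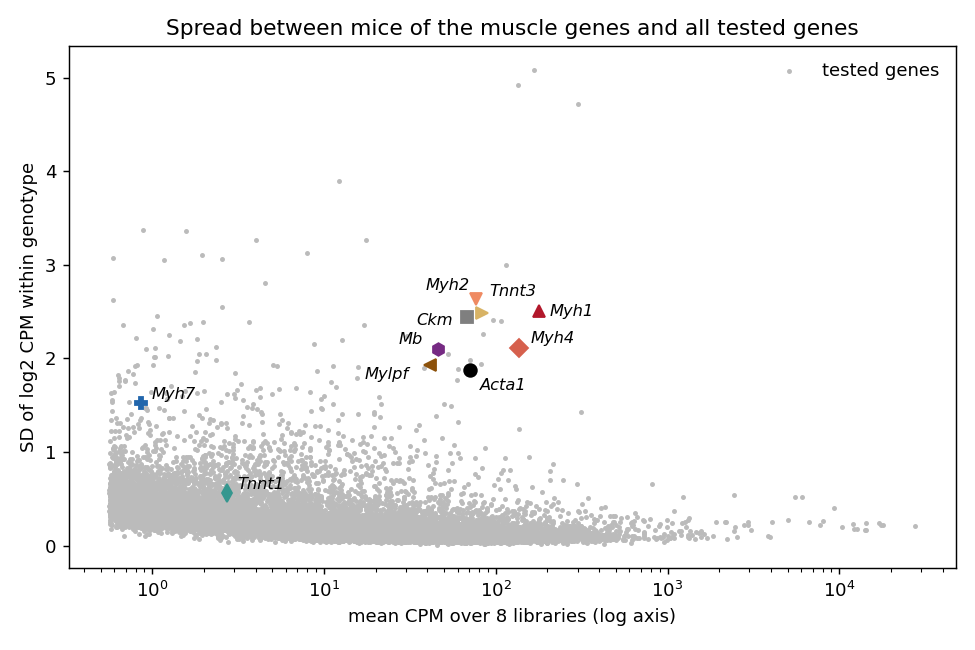
SD of log2 CPM between mice of the same genotype (vertical axis) against the mean CPM over 8 libraries (logarithmic horizontal axis) for 19366 tested genes (grey) and the 10 members (named symbols). Of the members, 8 lie between 1.87 and 2.64, Myh7 at 1.53 and Tnnt1 at 0.57, while the median of all tested genes is 0.170.

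Measured against each other, the members kept fixed proportions to different degrees. The log2 ratio of a member to the sum of the other 9 had an SD over 8 mice of 0.25 for Mylpf and Mb, 0.33 for Ckm and 0.37 for Tnnt3. It was 0.60 for Myh2, 0.64 for Myh1, 0.78 for Myh4 and 0.82 for Acta1. For Myh7 it was 1.15 and for Tnnt1 1.80. Without Het_491 it was 0.39 for Acta1, 0.15 for Ckm, 0.41 for Myh1 and 0.98 for Tnnt1, which then lay beside Myh7 at 0.998. Mylpf, Mb, Ckm and Tnnt3 had the lowest SDs with and without Het_491.

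Per kilobase of the longest coding transcript, Tnnt3 was highest, with a mean of 77.0 CPM per kilobase over 8 mice. It was followed by Mylpf (53.8), Acta1 (49.3), Mb (42.0), Myh1 (29.4), Ckm (24.7), Myh4 (22.8), Myh2 (12.6), Tnnt1 (2.56) and Myh7 (0.138). Neighbours held this order in 6 of 8 mice from Tnnt3 down to Mb, in 7 of 8 for Mb over Myh1 and for Myh1 over Ckm, and in 4 of 8 for Ckm over Myh4. Only Tnnt1 over Myh7 held in all 8. The mean log2 differences from Tnnt3 to Mb, 0.14 to 0.27, were smaller than their SDs over mice, 0.54 to 0.65. So were those of Myh1 over Ckm (0.37, SD 0.39) and of Myh2 over Tnnt1 (1.08, SD 2.21). For Ckm over Myh4 the mean log2 difference was -0.08 (SD 0.72), against the order of the mean levels.

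The genes whose profile over the 8 mice was most like the mean of the members were sought among all tested genes, by the root mean square difference of centred log2 CPM. The closest non-members were Ttn (0.13), which encodes the spring protein titin, Cox6a2 (0.17), the muscle form of a cytochrome c oxidase subunit, Myoz1 (0.19), a Z-disc protein, Rpl3l (0.23), a ribosomal protein of muscle, and Ryr1 (0.23), the calcium release channel. Tnni2 (0.25) and Tnnc2 (0.30), which with Tnnt3 make up fast troponin, Cacng1 (0.27), Klhl41 (0.31) and Dhrs7c (0.34) completed the first 10. Mylpf was closest of the members, at 0.12. Myh7, at 0.88, stood at rank 56 of all tested genes and Tnnt1, at 1.44, at rank 165. Since the mean was taken over the members themselves, their own values are a description only. All 10 non-members were highest in WT_6 and lowest in Het_491, which follows from their choice, since the mean profile of the members has its top and bottom there.

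Other muscle genes showed how far the pattern reached, and none of them passed the adjusted threshold between genotypes. Of 25 further sarcomere genes 22 were tested, 21 of them with lower fitted values in Opa1+/- mice, a median log2 fold change of -0.47, and the highest level in WT_6 for 21. As for the members, these directions rested on WT_6: without it all 20 genes then tested had higher fitted values in Opa1+/- mice, with a median of 0.32. Ttn stood at 44.6, 27.0, 225 and 51.1 CPM in WT and at 24.2, 117, 74.8 and 2.49 CPM in Opa1+/- mice. Neb, which encodes the thin filament ruler nebulin, ran from 8.17 CPM in Het_491 to 155 CPM in WT_6. Tpm1 and Tpm2 encode tropomyosins that smooth muscle and other cells also make. Tpm1 ranged only from 224 to 399 CPM, but Tpm2 ran from 40.5 CPM in Het_491 to 235 CPM in WT_6, 5.80-fold. The slow genes Tnni1, Tnnc1 and Myl3 fell under the count minimum.

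Of 16 calcium handling genes 15 were tested, 14 with lower fitted values in Opa1+/- mice and a median of -0.36. Without WT_6, 13 of the 15 had higher fitted values, with a median of 0.21. Atp2a1, the calcium pump of fast fibres, followed the members, from 1.60 CPM in Het_491 to 231 CPM in WT_6, and Casq1, a calcium store protein, went from 3.19 to 50.7 CPM. Pvalb, the calcium buffer parvalbumin, which neurons and hair cells also express, was highest in WT_6 at 245 CPM but still at 154 CPM in Het_491. Cacnb1 lay between 16.1 and 19.4 CPM.

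The 13 energy metabolism genes were all tested, 10 with lower and 3 with higher fitted values in Opa1+/- mice, and a median of -0.18. Without WT_6, 12 were higher, with a median of 0.29, and 0 of the 13 had an unadjusted p under 0.05 from edgeR. Pygm, the muscle glycogen phosphorylase, ran from 25.4 CPM in Het_491 to 82.0 CPM in WT_6, while Pfkm (127 to 189 CPM) and Fabp3 (81.7 to 116 CPM) varied little. Cox8b and Cox7a1, cytochrome c oxidase subunits of muscle, heart and brown fat, were the 2 that had an unadjusted p under 0.05, and both were higher in Opa1+/- mice. Cox8b had 33.7, 65.1, 21.6 and 15.0 CPM in WT and 72.8, 62.5, 49.5 and 76.7 CPM in Opa1+/- mice (log2 fold change 0.95, adjusted p = 0.727 from edgeR). It was highest in Het_491, where the members were lowest. Ucp1, the uncoupling protein of brown fat, named here after its values were seen, had 69.1, 192, 1.08 and 6.32 CPM in WT and 163, 174, 88.5 and 161 CPM in Opa1+/- mice. WT_6 and WT_8 were the 2 lowest libraries for both genes, and the part of fat in the Cox8b difference was not tested. Cox7a1, named here after its values were seen, had a log2 fold change of 0.59.

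At the membrane and the nerve-muscle synapse, 10 of 13 genes were tested, with a median of -0.12, which turned to 0.03 without WT_6. Dmd, dystrophin, lay between 35.0 and 50.6 CPM, Chrnb1, a subunit of the muscle acetylcholine receptor, between 5.87 and 11.8 CPM, and Dok7 and Rapsn between 4.02 and 6.87 and between 3.22 and 4.49 CPM. The sum over these 13 genes ran from 57.0 to 77.7 CPM, 1.36-fold, and Dmd was its largest part. Of the 10 tested genes, 4 were highest in WT_6 and 6 were lowest in Het_491. Clcn1, named here after its values were seen, ran from 0.255 CPM in Het_491 to 2.15 CPM in WT_6. Of 11 regulators of muscle development 4 were tested: Mef2a and Mef2c, which many tissues express, stayed between 105 and 120.2 and between 44.2 and 59.2 CPM. Tbx15 ran from 4.53 to 12.6 CPM, and Myf6 had 2.21 CPM in WT_6 and 0 counts in Het_491, where a count of 0 allows up to 3. Of the other sarcomeric myosins, Myh8 ran from 2.43 CPM in Het_491 to 53.5 CPM in WT_6, Myh13, a chain of the eye muscles, from 0.447 to 5.56 CPM, Myh3 from 0.928 to 4.18 CPM and Myh7b from 2.11 to 4.61 CPM.

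Markers of other tissues were summed in the same libraries, since a dissected cochlea can carry several of them. The 9 adipocyte markers were at 899, 1692, 538 and 666 CPM in WT mice and at 1401, 1382, 1294 and 1439 CPM in Opa1+/- mice. Car3, between 504 and 775 CPM and also made by muscle, was the largest single part of this sum in all 8 libraries. Without it, a sum chosen after the data were seen, the other 8 stood at 368, 917, 34.4 and 107 CPM in WT and at 786, 693, 551 and 813 CPM in Opa1+/- mice. Fabp4, the fatty acid carrier of fat cells, also named after its values were seen, had 213, 535, 22.3 and 67.6 CPM in WT and 469.6, 385, 322 and 503 CPM in Opa1+/- mice. WT_6, the highest library for muscle, was lowest for the adipocyte markers with and without Car3, and all 9 had higher fitted values in Opa1+/- mice (median 0.81, 0 called), as they did with any single mouse left out, when the median ranged from 0.43 without WT_6 to 1.61 without WT_5. The 8 erythroid markers were at 21435, 12310, 8727 and 7741 CPM in WT mice and at 15429, 15050, 18438 and 25040 CPM in Opa1+/- mice. WT_6 and WT_8 were again lowest, and all 8 had higher fitted values in Opa1+/- mice (median 0.56, 0 called), with a median from 0.37 without WT_8 to 0.96 without WT_4. With all mice, 0 markers of either list had an unadjusted p under 0.05 from edgeR. Without WT_5, 8 of the 9 adipocyte markers did, as did 1051 of 19314 tested genes. Without WT_4, 7 of the 8 erythroid markers did, as did 2006 of 19361 tested genes. The 8 smooth muscle markers ranged from 385 CPM in Het_491 to 1385 CPM in Het_2. The 10 stria vascularis markers ranged from 722 CPM in WT_4 to 1415 CPM in WT_6, which was highest for all 10. Bone markers ran from 971 CPM in Het_491 to 1459 CPM, cartilage markers from 91.1 CPM in Het_491 to 129.6 CPM in WT_6, and tendon markers from 162 to 219.8 CPM in WT_6. The 10 cardiac markers summed to between 33.6 CPM in Het_491 and 50.3 CPM in Het_7, and Myh6, Nppa, Nppb, Myl7 and Mybpc3 were under the count minimum. Ryr2, the largest part of this sum, lay between 23.95 and 30.6 CPM, whereas Actc1 ran from 0.511 CPM in Het_491 to 16.3 CPM in Het_7. Both genes are named here after their values were seen. The part of these tissues in the differences between libraries was not tested.

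**Figure D5:**
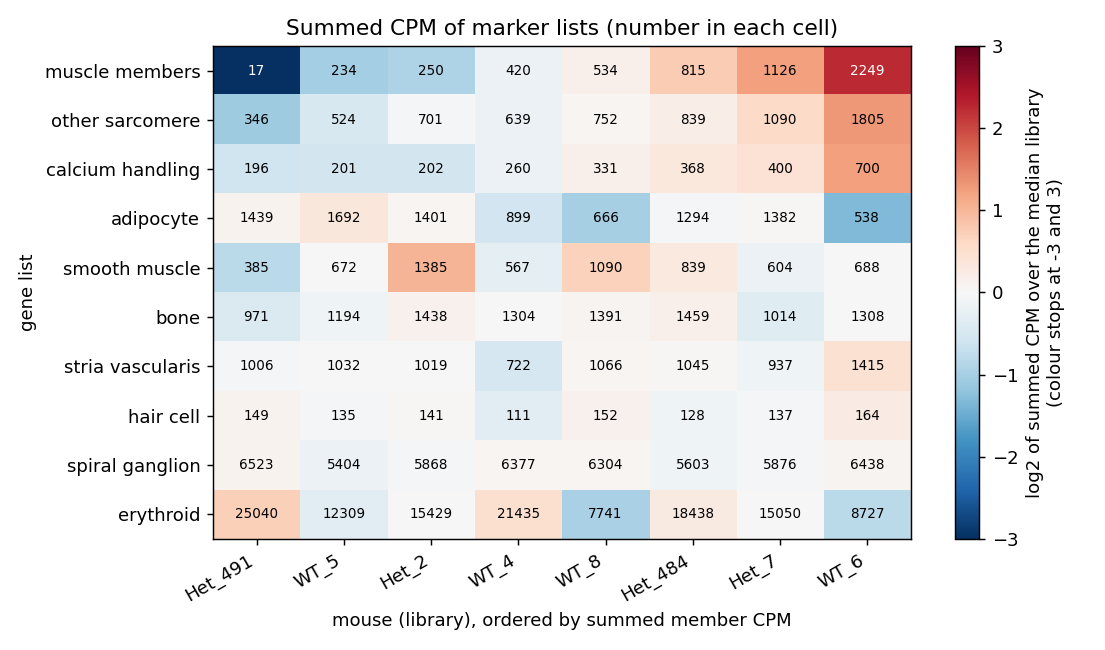
Summed CPM of the 10 members and of 9 other gene lists in each of the 8 libraries, ordered by the member sum. The number in each cell is the summed CPM, and the colour is its log2 ratio to the median library. Members run from 17 to 2249, further sarcomere genes from 346 to 1805 in nearly the same order, and adipocyte markers are lowest, at 538, in WT_6.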

How the data were processed

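Cochlear RNA of 4 WT and 4 Opa1+/- mice was sequenced from CORALL libraries as paired reads of 80 nucleotides. The submitters' processing notes name FastQC and STAR, and GRCm38 as the build. The authors deposited 1 table of raw counts per mouse, whole numbers per gene symbol, without normalization. The counting program and its use of strand are not given in the sources used here. Groups came from the genotype labels, and nothing marks a shared batch. Of the entries, 15 with a number in place of a symbol were left out. They held 0.112% to 0.124% of counts.

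Library sizes were the counts on named genes, scaled by TMM from edgeR 4.0.16. Genes with a mean DESeq2-normalized count over 10 were tested with edgeR's quasi-likelihood test, Benjamini-Hochberg adjusted over 19366 genes, at 0.05. A standard error is the size of the log2 fold change over the root of its F statistic. Log2 CPM used a prior count of 0.5, and list levels are sums of CPM. The test was checked on simulated data. Positions and transcripts come from GENCODE vM21, promoter windows from RefSeq (GRCm38.p6). R 4.3.3, DESeq2 1.42.0, limma 3.58.1, Python 3.11.15, scipy 1.17.1 and matplotlib 3.10.9 were used.

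The text names the 10 members, up to 4 genes per further muscle list by highest mean CPM, and the 10 non-members most like the members. Genes outside this rule are said to be so or are listed as under the count minimum. The members and lists were chosen with earlier results of these data known. Alternatives were other scalings, filters, tests and thresholds, and each mouse left out in turn. Leaving out WT_6 and Het_491 together, the member level as a covariate, the alternatives for the count over all genes, and leaving out mice for the spread and the gene lists were added after the data were seen.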

Additional observations from a re-analysis of the deposited data

Results flagged for a closer look

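Among the 4 WT mice, WT_6 stood so far above the rest that its gap to the next mouse exceeded Dixon's 95% critical value of 0.829 of the group's range. This held for Acta1 (276 CPM), Ckm (245 CPM), Myh1 (460.4 CPM), Myh2 (286 CPM), Mylpf (125 CPM), Tnnt3 (310.3 CPM), Mb (166 CPM) and the summed members (2249 CPM). Among the 4 Opa1+/- mice, the Myh2 share of the 4 adult myosins in Het_7, 25.1%, stood apart in the same way. Gaps were taken on CPM, where high values lie further apart than on the log2 scale used for the spread. For normally distributed values, chance gives such a gap in about 1 in 20 groups, and CPM was not shown to be normal. Every member, their sum, Opa1 and the 4 myosin shares were searched in both genotypes. The WT values are not independent of one another, since all come from the same library.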

How the results depend on the processing

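Members called stayed at 0 of 10 under every alternative run for them, which leaves out the covariate below. Member log2 fold changes changed sign, always with an adjusted p of 0.67 or more from edgeR or limma. With 1 mouse left out they ranged, from the value without Het_7 to that without WT_6, from -1.37 to 0.97 for Acta1, -1.49 to 0.49 for Ckm, -1.07 to 0.70 for Myh1, -1.88 to 1.04 for Myh2, -1.30 to 0.30 for Mylpf, -1.41 to 0.69 for Tnnt3 and -1.50 to 0.47 for Mb. Myh4 ranged from -1.90 without Het_484 to -0.22 without WT_6, Tnnt1 from -0.27 without Het_7 to 0.27 without Het_491, and Myh7 from -0.28 without Het_7 to 1.04 without Het_491. Without WT_6 and Het_491 together they were 1.34 for Acta1, 0.89 for Ckm, 1.10 for Myh1, 1.44 for Myh2, 0.18 for Myh4, 0.68 for Mylpf, 1.09 for Tnnt3 and 0.86 for Mb. Acta1 turned to 0.17 with limma voom. The median of the members ranged from -1.34 to 0.59 and the ratio of sums from 0.420 to 1.39 with 1 mouse left out. The median kept its sign under other scalings, filters and tests, and the ratio, computed for other scalings alone, stayed under 1. With 1 mouse left out, the genotype differences in myosin shares, in percentage points, ranged from -1.12 to 7.83 for Myh1, -3.53 to 2.82 for Myh2, -8.65 to 4.37 for Myh4 and 0.0667 to 0.324 for Myh7. They moved by less than the SD pooled over both genotypes, but Myh7 without Het_491 by more than its WT SD of 0.151, and the first 3 changed sign. Adding Myh8 and Myh3 to the sum gave differences of 0.576 for Myh1, -1.24 for Myh2, -6.83 for Myh4 and 0.157 for Myh7, with all mice. The median SD of the members, with 1 mouse left out, ranged from 1.31 without Het_491 to 2.30 without Het_2. Without WT_6 and Het_491 together it was 0.892. Over all genes, 5 were called; no filter gave 12, robust estimation 10, DESeq2 23, limma voom 10 and an adjusted threshold of 0.1 gave 11. Leaving out 1 mouse gave 0 to 9, leaving out WT_6 and Het_491 gave 1, and the member level as a covariate gave 1. Opa1 itself lost the call without Het_2 (log2 fold change -0.85, adjusted p = 0.0704 from edgeR), and ranged from -0.90 to -0.83 with 1 mouse left out. The causes were not tested. No paired analysis was possible because the genotypes share no animal numbers. Depth limits Myh7, with 1 to 50 counts per library, and every member in Het_491, with 1 to 78.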
